A study of Daphnia magna with 45 samples.

Results

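The members described here are 100 of the 19159 transcript IDs measured in whole Daphnia magna, a freshwater crustacean, and they were selected on their levels, as IDs higher after 24 h of propranolol than in the control of that hour, in order of dose. The level L of an ID is log2(CPM + 1), where CPM is its reads per 1000000 reads of the library. An ID was eligible if its mean L at 24 h was ordered control below propranolol 1 mg/L below propranolol 4 mg/L, if all 3 libraries of 4 mg/L lay above all 3 control libraries, and if the means of 4 mg/L and control at 6 h differed by less than 0.5 either way. The order of dose was met by 4075 IDs, the separation by 618 of these and the limit at 6 h by 470, from which the 100 with the largest difference between 4 mg/L and control at 24 h were taken. That difference was 2.32 at rank 1, 0.94 at rank 50 and 0.70 at rank 100, and the first ID outside the list had 0.69. These values chose the members and carry no test.

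All animals were females of the strain Xinb3 aged 5 days, kept in groups of 20 in 35 mL, and RNA was taken from whole bodies. Control animals and animals in propranolol at 1 mg/L were sampled at 1, 3, 6 and 24 h, those in propranolol at 4 mg/L at 1, 6 and 24 h, and those in 100 mg/L isoprenaline, alone or together with 1 mg/L propranolol (the mixture), at 1 and 6 h. Each group had 3 libraries, except 2 for propranolol 4 mg/L at 6 h and 1 for a control at 0 h, which gives 45 libraries. Nothing in the labels ties replicates to separate cultures, and p-values therefore describe spread among these libraries alone, which could be technical. In whole bodies, fewer cells of a type and less RNA per cell cannot be told apart.

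Propranolol blocks beta-adrenergic receptors, the receptors through which adrenaline and noradrenaline speed the vertebrate heart, and isoprenaline activates them. Arthropods use octopamine and tyramine in place of these hormones, acting on related receptors, and the transparent body of Daphnia lets its heart be watched in the living animal. Juvenile Daphnia moult repeatedly, and many transcripts of whole animals change over the hours of a moult cycle. The deposited table gives no gene names, and 0 of its IDs matched the 28335 genes of the reference table, so no function is assigned to any member and no sequence is shown.

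Library totals ran from 13.5 to 43.7 (in units of 1000000 reads), and 3 reads, taken as the floor of detection, stood for 0.0686 to 0.222 CPM. At most 1 member was at 0 reads and at most 3 members were at or under the floor in any library. One library stood apart from its label. Replicate 1 of propranolol 4 mg/L at 24 h correlated over the other IDs at r = 0.761 and r = 0.843 with replicates 2 and 3 of its group, which correlated with each other at r = 0.945. The library closest to it was replicate 2 of isoprenaline at 1 h, at r = 0.993, the highest of all 990 pairs of libraries. In reads, that pair differed by a chi-square of 9.63 per degree of freedom, against 17.4 to 640.1 for the 43 pairs within a group, and it was the second lowest of all pairs, so these libraries were more alike than any replicates. Replicates 3 of isoprenaline and of propranolol 4 mg/L at 1 h were about as close (r = 0.993, chi-square 7.07 per degree of freedom). In both pairs the difference was above sampling noise, and no library was removed as a copy. Whether any of these libraries carries a wrong label was not tested and cannot be settled from the table, so the values printed for propranolol 4 mg/L at 24 h hold only as far as that label is right. Counts, sums and medians that rest on the library labelled replicate 1 at 24 h are given with and without it.

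The name of the list, a late rise, held in size against the control of the same hour and not over time. At 6 h, within the limit of the rule, 83 members already had a higher mean in 4 mg/L than in the control. Their median difference was 0.23, where 38.9% of all IDs were higher, with a median of -0.12. The rule limited the size of that difference and set no direction, and the mean of 4 mg/L rests on 2 libraries there. In the control, 95 of the 100 members were lower at 24 h than at 1 h, with a median L difference of -1.16, and 93 were lower than at 6 h, with a median of -0.72. Over all IDs the median differences were 0.05 and 0.04, and 54.2% of IDs were higher at 24 h than at 1 h. All 3 control libraries at 24 h lay below all 10 earlier control libraries for 40 members, which held for 4.99% of all IDs, and they lay above all of them for 0 members. Low control values at 24 h were part of the choice, so nothing is read from these counts beyond a description of the list.

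**Figure D1:**
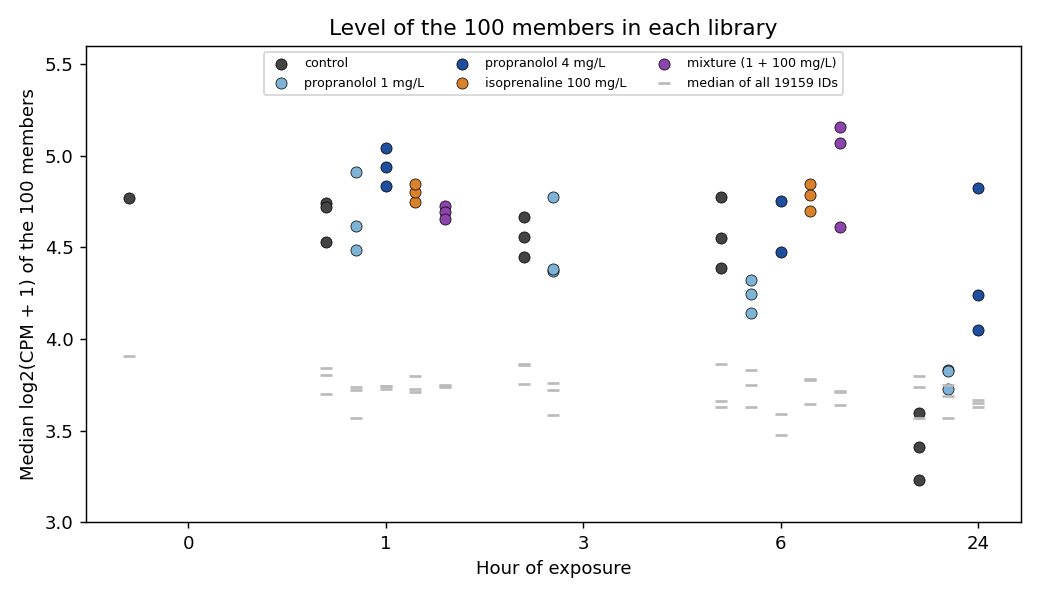
Median log2(CPM + 1) of the 100 members in each of the 45 libraries (points), by hour of exposure and coloured by exposure, with the median of all IDs as grey dashes. The 3 control libraries at 24 h lie at 3.23 to 3.59, and no library of 6 h or earlier lies below 4.14.

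With propranolol the members ended less far below their earlier levels. From 1 to 24 h the median difference in L over members was -0.59 in propranolol 1 mg/L and -0.33 in propranolol 4 mg/L, beside the -1.16 in the control, an order that the rule favours. Only 12 members were higher at 24 h than at 1 h in 1 mg/L and 16 in 4 mg/L, where 54.2% and 52.4% of all IDs were. Against 6 h, 53 members were higher at 24 h in 4 mg/L, with a median difference of 0.02, and 70.5% of all IDs were. Without replicate 1 at 24 h, 15 members were higher than at 1 h and 37 higher than at 6 h, with medians of -0.54 and -0.15. Of all IDs, 57.4% and 68.6% then were. For 0 members did all 3 libraries of 4 mg/L at 24 h exceed all 5 libraries of that dose at 1 and 6 h, which held for 1.39% of all IDs, and without replicate 1 it held for 1 member and 10.9% of all IDs.

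In single libraries at 24 h, the median L of the members was 3.23, 3.41 and 3.59 in the control and 3.73, 3.83 and 3.83 in propranolol 1 mg/L. In propranolol 4 mg/L it was 4.83 in replicate 1, 4.05 in replicate 2 and 4.24 in replicate 3. The 3 groups did not overlap, and replicate 1 stood above the other two of its group by more than these differed. The rule asked for this order of means in every member, and for 4 mg/L wholly above control. Nothing is therefore read from the order of these medians or of the sums below. The summed CPM of the members was 4390 ± 524 in the control, 5806 ± 1332 in 1 mg/L and 9029 ± 1519 in 4 mg/L (SD, n = 3 each; 8165 ± 363 in 4 mg/L without replicate 1, SD, n = 2), against 9899 ± 547 in the control at 1 h. Counted against the lowest of the 10 earlier control libraries, 45 to 61 members lay below it in the control libraries at 24 h and 27 to 47 in those of 1 mg/L. The shares of all IDs below it were 10.2% to 19.2% and 9.35% to 19.7%. In replicates 1, 2 and 3 of 4 mg/L, 0, 25 and 19 members lay below it, beside 14.9%, 20.04% and 10.7% of all IDs, so that the count in replicate 2 was near that of all IDs.

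The difference between 1 mg/L and control at 24 h had a median of 0.34, or 34.8% of the difference between 4 mg/L and control, with a range over members of 3.19% to 84.9%. Without replicate 1 of 4 mg/L the median share was 47.0%, with a range of 3.04% to 338%. The ranking by the difference at 4 mg/L bears on this share. All 3 libraries of 1 mg/L lay above all control libraries for 22 members (1.76% of all IDs), and all libraries of 4 mg/L lay above all of 1 mg/L for 30 (3.1% of all IDs). Without replicate 1 the latter count was 33, with 8.29% of all IDs. In the fit over all IDs, 26 members passed an adjusted p of 0.05 between 4 mg/L and control (limma; 0.491% of all IDs were called higher). Without replicate 1 of 4 mg/L 3 passed, without replicate 1 of the control 5 and without its replicate 3 15. The rule used this contrast, and nothing is read from the counts.

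Replicate 1 set much of the ranking. It was the highest of the 3 libraries for 69 members, while replicate 2 was the highest for 11 and replicate 3 for 20, and over all IDs it was the highest for 34.8%. Without it the median difference between 4 mg/L and control fell from 0.94 to 0.79, and the smallest was 0.13 in place of 0.70. Of the members, 93 still met the 3 conditions, but 1089 IDs then met them, and only 25 members stayed among the top 100. Of these 25, 22 came from the upper 50 ranks.

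**Figure D2:**
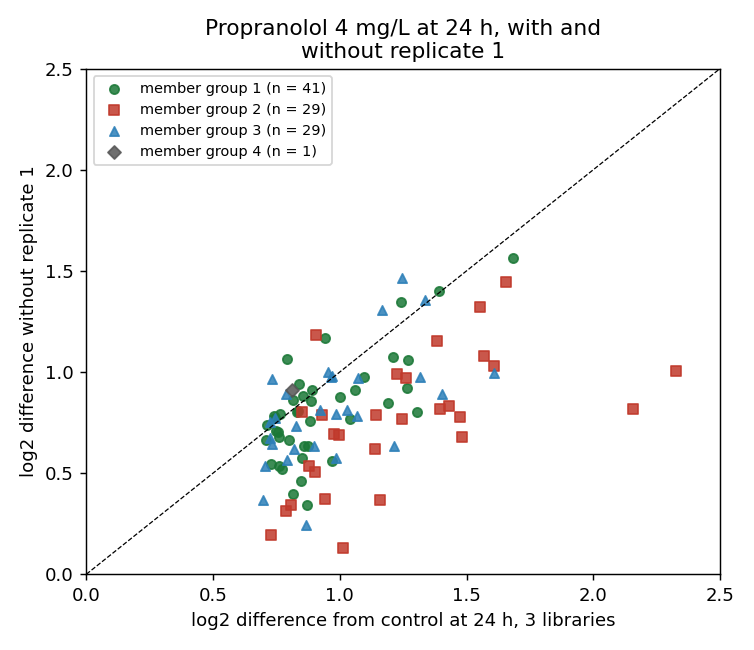
Difference in mean log2(CPM + 1) between propranolol 4 mg/L and control at 24 h for each of the 100 members, with all 3 libraries (x axis) and without replicate 1 (y axis). Symbols mark the groups of members described below, and the dashed line marks equal values. Most members lie below the line, and ranks 1 and 2, at 2.32 and 2.16 on the x axis, lie at 1.01 and 0.82 on the y axis.

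Ranks 1 and 2 showed this most. Dapma7bEVm029200t1 was at 4.30, 9.86 and 2.99 CPM in the control at 24 h, at 15.8, 14.5 and 10.96 CPM in propranolol 1 mg/L, and at 189.4, 10.9 and 11.7 CPM in 4 mg/L (replicates 1 to 3). The high value was that of replicate 1 alone, and the other 2 libraries of 4 mg/L lay below replicates 1 and 2 of 1 mg/L. At 1 and 6 h the ID was at 123.4 ± 15.4 and 206.7 ± 123.4 CPM in the control and at 153.9 ± 80.2 CPM (SD, n = 3 each) and 177.1 ± 8.24 CPM (SD, n = 2) in 4 mg/L. It was thus lower at 24 h than in any earlier library in all but replicate 1 of 4 mg/L. Dapma7bEVm023372t1, at rank 2, was at 4.42, 9.35 and 3.603 CPM in the control at 24 h and at 181.6, 10.6 and 9.83 CPM in 4 mg/L. Without replicate 1 neither ID met the order of dose.

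The IDs at ranks 1 and 2 varied together in all 45 libraries (r = 0.999), with a ratio of CPM + 1 between 0.868 and 1.17. Such values can come from near-identical copies or from parts of 1 transcript, between which the authors' counting may have split reads, and the table does not tell these apart. A second pair, Dapma7bEVm027804t1 and Dapma7bEVm027803t1 at ranks 14 and 24, had r = 0.994. These 4 IDs are therefore not independent members.

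**Figure D3:**
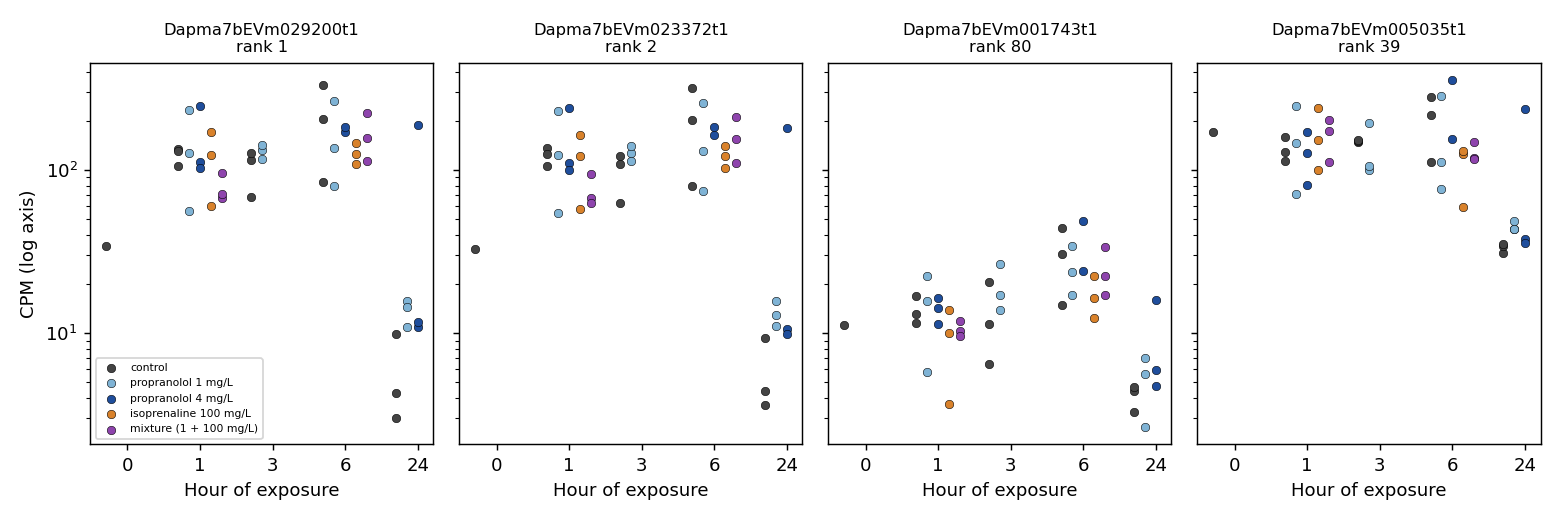
CPM (log axis) of 4 members in each library by hour of exposure, coloured by exposure. At 24 h the highest point in each panel is replicate 1 of propranolol 4 mg/L, at 189.4, 181.6, 16.0 and 235.2 CPM from left to right.

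Rank 3 stayed among the top 100 without replicate 1. Dapma7bEVm001659t1 was at 114.6, 114.3 and 69.0 CPM in the control at 24 h, at 193.9, 160.8 and 168.2 CPM in propranolol 1 mg/L and at 367.4, 193.6 and 428.8 CPM in 4 mg/L. The control libraries lay below all others, and replicate 2 of 4 mg/L lay within 1 CPM of replicate 1 of 1 mg/L. Its difference between 4 mg/L and control was 1.68, and 1.57 without replicate 1, when it ranked 17 among the 1089 eligible IDs. In 4 mg/L it was at 347.0 ± 27.6 CPM at 1 h (SD, n = 3), 342.6 ± 40.7 at 6 h (SD, n = 2) and 329.9 ± 122.0 at 24 h (SD, n = 3), while the control went from 254.4 ± 23.4 at 1 h to 99.3 ± 26.2 at 24 h (SD, n = 3 each). The mean at 4 mg/L was thus about even over the hours while that of the control was lower at 24 h. The single libraries of 4 mg/L at 24 h were not even: replicate 2 lay below and replicate 3 above every earlier library of that dose.

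A member whose 24 h values did not rest on 1 library was Dapma7bEVm002650t1, at rank 64. It was at 8.05, 7.89 and 6.65 CPM in the control, at 9.37, 9.43 and 11.3 CPM in propranolol 1 mg/L and at 13.7, 14.8 and 14.6 CPM in 4 mg/L. The 3 groups did not overlap and lay in order of dose, which the rule required of the means. The difference between 4 mg/L and control was 0.85, and 0.88 without replicate 1.

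Across the 31 libraries of groups that the rule did not use, the members were not of 1 kind. The mean correlation of L between pairs of members was 0.166, against 0.0516 between pairs of all IDs, and the quartiles over pairs of members were -0.15 and 0.49. Libraries share depth and scaling, so these values describe the table only. The members were split by these correlations into 4 groups of 41, 29, 29 and 1, within which the mean correlation was 0.53, 0.57 and 0.54 for the first 3. The single ID apart was Dapma7bEVm026901t1, at rank 75. It had 0 reads in replicate 2 of the mixture at 6 h, against 53 and 66 in replicates 1 and 3. How far its place in the split rests on that library was not tested. Differences between these groups in any of the 31 libraries, given below, partly restate this split.

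The groups differed in how they went over the hours in the control. In group 2, which holds ranks 1 and 2, the median L was 5.57 at 1 h, 5.30 at 3 h, 5.43 at 6 h and 3.20 at 24 h. In group 3 it was lower by 6 h, with 4.58, 4.37, 3.89 and 3.63. Group 1, which holds rank 3 and Dapma7bEVm002650t1, changed least from 1 h on, with 4.30, 4.44, 4.39 and 3.61. In the single control library at 0 h its median was 5.97. At 24 h in propranolol 4 mg/L the medians were 4.47, 4.61 and 4.46 for groups 1, 2 and 3. Without replicate 1 they were 4.27, 4.03 and 4.29. At 6 h that dose had 4.39, 5.64 and 4.04. The median of group 2 was thus lower and that of group 3 higher at 24 h either way. The median of group 1 was higher only with replicate 1. Counted by member, groups 1 and 3 were alike without replicate 1, with 21 of 41 and 15 of 29 higher than at 6 h. Of all IDs 68.6% were then higher, with a median difference of 0.20 (70.5% and 0.14 with replicate 1). No late rise particular to group 3 is therefore read from its medians.

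Replicate 1 touched the groups unequally. It was the highest library of 4 mg/L at 24 h for 28 of 29 members of group 2, 22 of 41 of group 1 and 19 of 29 of group 3. Without it the median difference from control went from 1.16 to 0.79 in group 2, from 0.95 to 0.79 in group 3 and from 0.85 to 0.79 in group 1. In 4 mg/L at 24 h, 32 members of group 1, 20 of group 3 and 1 of group 2 had a higher mean L than at 6 h. Without replicate 1 these counts were 21, 15 and 1. The shares of all IDs were 70.5% with and 68.6% without that replicate.

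**Figure D4:**
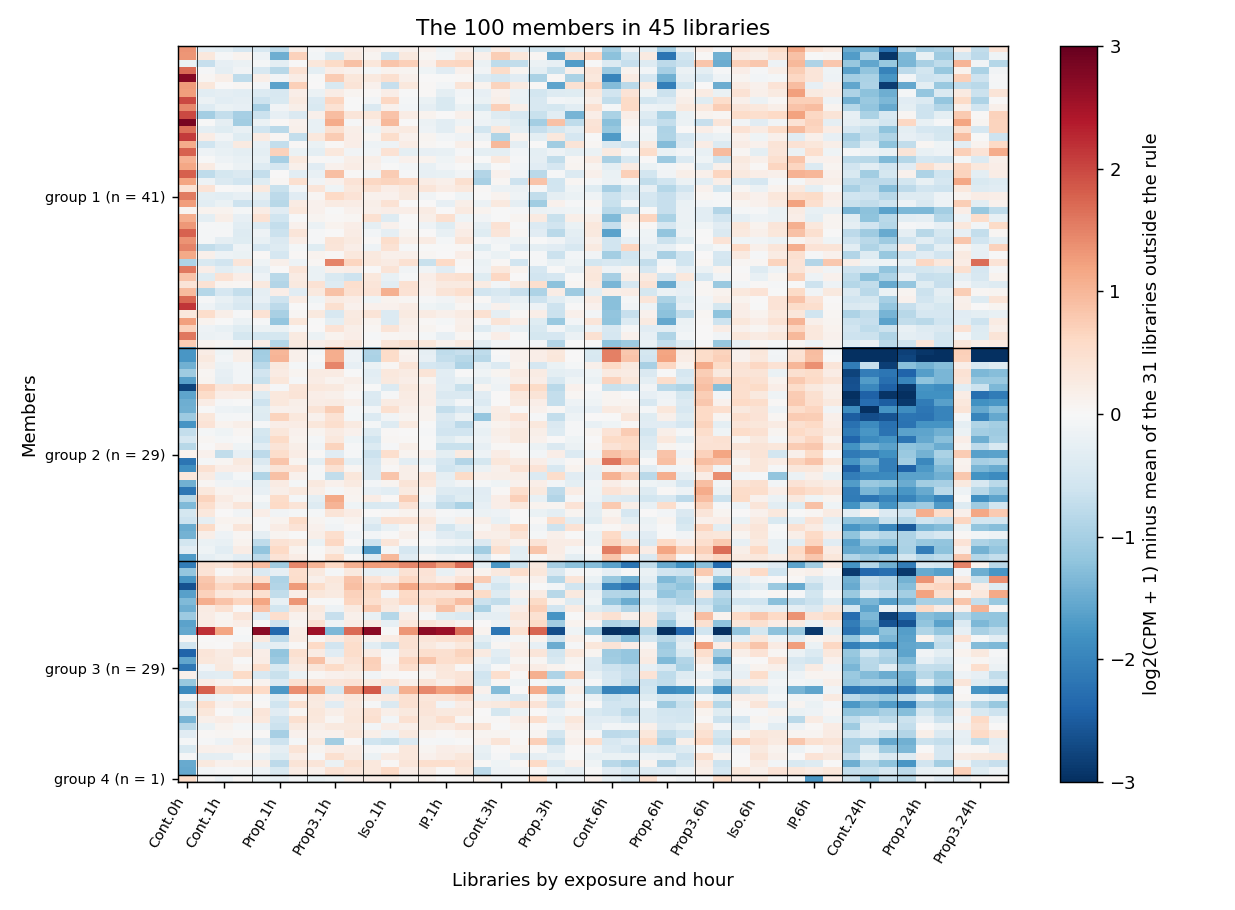
L of the 100 members (rows, by group of members and then rank) in the 45 libraries (columns, by hour and exposure), as the difference from each member's mean over the 31 libraries outside the rule. Blue marks lower and red higher values on a scale from -3 to 3. The control columns at 24 h are blue in all groups of members, most strongly in group 2, where the first of the 3 columns of propranolol 4 mg/L at 24 h is not.

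Members were somewhat more abundant than other IDs, with a median over members of 24.7 CPM against 13.5 CPM for all IDs, and they varied more over the 31 libraries, with a median SD of L of 0.47 against 0.36. Their mean levels ran from 0.351 to 3058 CPM, and 86 of the 100 were at 5 CPM or more. The rule favours IDs whose L can move far, so these are descriptions.

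Of the 17 comparisons that follow, 13 use no library of the rule, and 4 use the control at 6 h, which the rule used only to limit its difference from 4 mg/L. They ask whether the members were also higher with these compounds at other hours. The rule used replicate 1 of propranolol 4 mg/L at 24 h, which was closest to an isoprenaline library at 1 h. If the label of that replicate is wrong, the comparisons with isoprenaline may not be independent of the choice of members. This was not tested. At 1 h, 72 members and 49.7% of all IDs had a higher mean in propranolol 4 mg/L than in the control. The median L difference of the members was 0.18 against -0.00 over all IDs. All 3 exposed libraries lay above all 3 control libraries for 25 members and below them for 2, where 5.25% and 5.09% of all IDs did. No member passed the test over all IDs (limma, 0 of 100, 0.0104% of all IDs called higher), while 11 members were higher at an unadjusted p under 0.05, edgeR called 0 and DESeq2 called 3, all higher. The median stayed between 0.14 and 0.23 over the limma fits with libraries left out or the settings changed. Without replicate 3 of 4 mg/L it was 0.15 with 69 members higher.

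Propranolol at 1 mg/L did not show this. At 1 h 35 members were higher than in the control, with a median difference of -0.08, beside 48.7% and -0.01 for all IDs. The libraries of 1 mg/L all lay above those of the control for 2 members and all below for 1 (3.14% and 1.61% of all IDs). At 3 h 29 members were higher, with a median of -0.13, beside 32.3% and -0.11 for all IDs, so that the count was near that of all IDs. At that hour 0 members lay wholly above and 6 wholly below (0.976% and 8.01%). At 6 h 31 were higher, with a median of -0.13, beside 45.5% and -0.03 for all IDs, and 0 lay wholly above and 6 wholly below (2.01% and 3.07%). In these 3 comparisons limma, edgeR and DESeq2 called 0 members (0.0% of all IDs with limma), and 1 member each had an unadjusted limma p under 0.05, higher at 1 h and lower at 3 and 6 h.

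The doses were also compared directly at 1 h. Of the members 86 were higher at 4 mg/L than at 1 mg/L, as were 56.3% of all IDs. The median differences were 0.28 and 0.04, and 9 members lay wholly above and 0 wholly below (2.63% and 3.3% of all IDs). With a library left out, the median of the members ranged from 0.15 to 0.39. One member passed, Dapma7bEVm002650t1 (0.0104% of all IDs called higher and 0.0209% either way). It was at 13.3, 19.6 and 17.2 CPM in 4 mg/L and at 10.3, 6.93 and 9.84 CPM in 1 mg/L, and the groups did not overlap. Its difference was 0.82 (SE 0.155, limma adjusted p 0.0413, edgeR 0.0159). Leaving out each library in turn, it passed in 2 of 6 fits, those without replicate 1 of either dose, and not in a fit of the compared groups alone (adjusted p 1.00).

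Isoprenaline and the mixture at 1 h were each set against the same control libraries as 4 mg/L. In isoprenaline 64 members were higher, with a median of 0.15, beside 47.5% and -0.01 for all IDs. Wholly above lay 23 members and wholly below 4 (5.66% and 5.13% of all IDs). Without replicate 2, the library closest to replicate 1 of 4 mg/L at 24 h, 70 were higher with a median of 0.14, and without replicate 3, which resembled a library of 4 mg/L at 1 h, 56 with a median of 0.09. In the mixture 65 were higher, with a median of 0.11, beside 43.9% and -0.03 for all IDs. Wholly above lay 20 members and wholly below 12 (9.11% and 13.4%). Limma and edgeR called 0 members in both (0.0157% of all IDs were called higher in isoprenaline and 0.0% in the mixture, by limma), with unadjusted p under 0.05 for 10 higher and 0 lower in isoprenaline and 6 higher and 4 lower in the mixture. DESeq2 called 2 members in isoprenaline and 0 in the mixture.

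**Figure D5:**
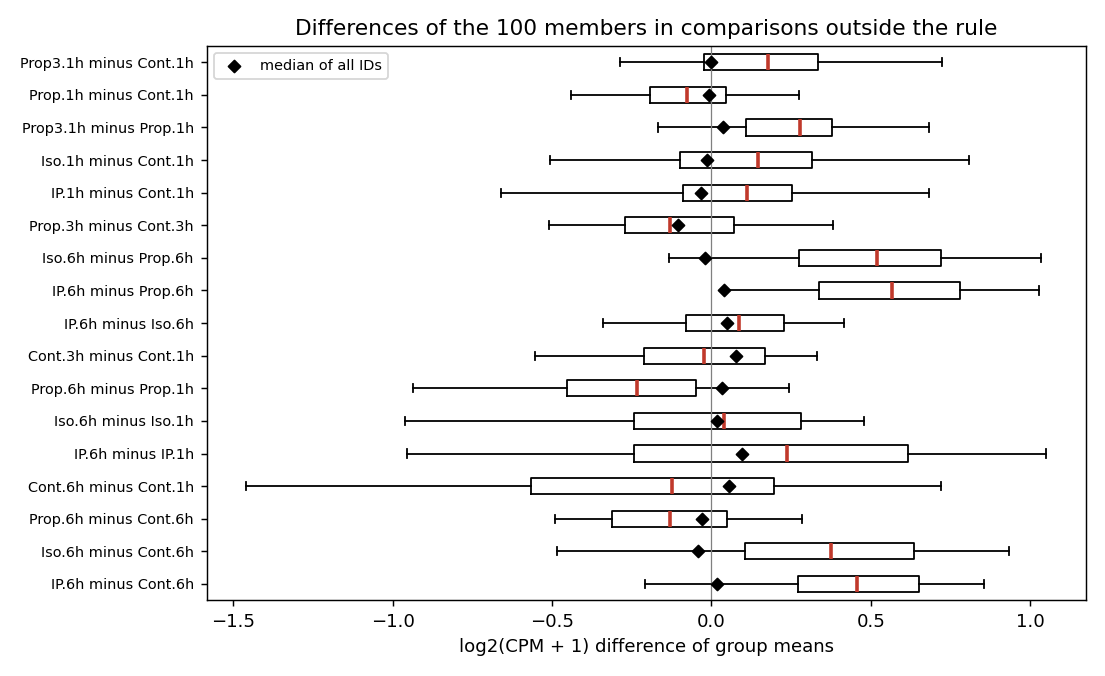
Difference in mean log2(CPM + 1) of the 100 members in 17 comparisons that the rule did not use (boxes span the quartiles, red lines mark medians and whiskers the 5th and 95th percentiles), with the median of all IDs as black diamonds. Cont is control, Prop and Prop3 are propranolol 1 and 4 mg/L, Iso is isoprenaline and IP the mixture. The members lie furthest above all IDs for isoprenaline and the mixture at 6 h.

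At 6 h the members were higher with isoprenaline, whether or not propranolol 1 mg/L was present. Against propranolol 1 mg/L, none of whose 6 h libraries entered the rule, 87 members were higher in isoprenaline and 95 in the mixture. Of all IDs 48.1% and 55.3% were. The median differences of the members were 0.52 and 0.57 beside -0.02 and 0.04 for all IDs. All 3 isoprenaline libraries lay above all 3 of propranolol 1 mg/L for 44 members, and those of the mixture did for 40, with 0 members wholly below in either. Over all IDs 9.97% and 5.82% lay wholly above, and 11.7% and 7.94% wholly below. Both comparisons share the libraries of propranolol 1 mg/L. The medians ranged from 0.41 to 0.58 and from 0.49 to 0.62 over the limma fits with other settings or a library left out, the lowest of each without replicate 2 of propranolol 1 mg/L.

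Few single members passed the test at 6 h. Limma called 1 member higher in isoprenaline and 3 in the mixture (0.0783% and 0.188% of all IDs called higher, 0.496% and 0.679% lower, and 0.574% and 0.866% either way), and 33 and 42 were higher at an unadjusted p under 0.05. Dapma7bEVm002650t1 was at 15.1, 14.02 and 16.3 CPM in isoprenaline and at 18.8, 19.5 and 14.8 CPM in the mixture, against 8.62, 7.42 and 9.77 CPM in propranolol 1 mg/L. Every library with isoprenaline lay above every library without it. The difference for isoprenaline was 0.76 (SE 0.155, limma adjusted p 0.0187), and for the mixture it was 0.96, with the same SE and an adjusted p of 0.00273 by limma. With each library left out in turn, the call in the mixture held in 6 of 6 fits (adjusted p up to 0.041), and that in isoprenaline in 1 of 6, the fit without replicate 1 of propranolol 1 mg/L (adjusted p up to 0.153 in the others). Neither passed in a fit of the compared groups alone (adjusted p 0.174 and 0.294).

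The other members called in the mixture were Dapma7bEVm001659t1, at 518.9 ± 182.7 CPM against 235.8 ± 67.7 CPM, and Dapma7bEVm028639t1 at rank 36, at 17.8 ± 5.78 CPM against 6.85 ± 1.95 CPM (SD, n = 3 each). The first differed by 1.12 (SE 0.284, limma adjusted p 0.0474), and the second by 1.25, with an SE of 0.291 and an adjusted p of 0.0298 by limma. With libraries left out in turn the first passed in 0 of 6 fits (adjusted p 0.0522 to 0.406) and the second in 2 of 6, those without replicate 1 of propranolol 1 mg/L and without replicate 3 of the mixture. All 3 IDs called here belong to group 1, in which 40 of 41 members were higher in the mixture, with a median of 0.75. In groups 2 and 3, 26 and 29 of 29 were higher, each with a median of 0.48. The libraries compared here were among those used to form the groups, so nothing is read from these differences between groups.

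Against the control at 6 h, 84 members were higher in isoprenaline and 90 in the mixture, with medians of 0.37 and 0.46. Of all IDs 46.8% and 51.6% were, with medians of -0.04 and 0.02. Wholly above lay 27 and 22 members (15.0% and 4.97% of all IDs), and wholly below 0 in both (22.9% and 12.2%). Limma called 1 member higher in each, Dapma7bEVm002650t1 (0.162% and 0.256% of all IDs called higher), with differences of 0.63 and 0.83 (SE 0.155 each, limma adjusted p 0.0306 and 0.00414). Without replicate 1 of the control 8 and 10 members were called, and without replicate 2 of the control 0 in both. Leaving out each library in turn, the call in isoprenaline passed in 1 of 6 fits and that in the mixture in 5 of 6.

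The mixture and isoprenaline alone were compared at 6 h. The median difference of the members was 0.09, against 0.05 for all IDs, 2 members lay wholly above and 0 wholly below (3.15% and 2.86% of all IDs), and limma, edgeR and DESeq2 called 0 (0.0% of all IDs with limma; 1 member was lower at an unadjusted p under 0.05). No likeness of action follows from this, since the median SE of a difference over all IDs was 0.279.

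Members lowest with isoprenaline at 6 h were named by rule. Dapma7bEVm001743t1, at rank 80, was at 17.0 ± 4.98 CPM in isoprenaline and 24.3 ± 8.39 in the mixture against 24.9 ± 8.51 CPM in propranolol 1 mg/L, and Dapma7bEVm005035t1, at rank 39, at 105.1 ± 40.03 and 128.1 ± 18.0 against 157.5 ± 111.6 CPM (SD, n = 3 each). Neither passed (limma adjusted p 0.614 and 0.992 for the first, 0.711 and 0.984 for the second). At 24 h both were high in replicate 1 of 4 mg/L alone. Dapma7bEVm005035t1 was at 30.96, 34.1 and 35.2 CPM in the control, at 43.7, 43.7 and 48.8 CPM in propranolol 1 mg/L and at 235.2, 37.8 and 35.4 CPM in 4 mg/L. Replicates 2 and 3 of 4 mg/L thus lay below all libraries of 1 mg/L.

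Changes within an exposure were taken over the first hours. In the control the median difference of the members was -0.02 from 1 to 3 h and -0.12 from 1 to 6 h, and in propranolol 1 mg/L it was -0.23 from 1 to 6 h, against 0.08, 0.06 and 0.03 for all IDs. From 1 to 6 h in the control the median was -0.07 in group 1, 0.18 in group 2 and -0.69 in group 3, where 3 of 29 members were higher at 6 h. Over all members it was 0.04 in isoprenaline and 0.24 in the mixture from 1 to 6 h, against 0.02 and 0.10. In the control 27 members lay wholly lower at 6 h than at 1 h and 5 wholly higher (14.7% and 22.2% of all IDs). From 1 to 3 h the control had 7 wholly lower and 5 wholly higher (2.83% and 8.99%), and in propranolol 1 mg/L at 6 h there were 8 and 0 (1.27% and 3.9%).

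One member was called over these hours, Dapma7bEVm028500t1 at rank 25, at 23.8 ± 4.37 CPM in the mixture at 6 h against 10.9 ± 3.40 CPM at 1 h (SD, n = 3 each; 0.157% of all IDs called higher). Its difference was 1.08 (SE 0.223, limma adjusted p 0.0313, edgeR 0.0982), and in turn without each library it passed in 2 of 6 fits, those without replicate 1 at 1 h and without replicate 3 at 6 h. In the other 4 comparisons limma and edgeR called 0 members (0.0% of all IDs, and 0.00522% lower for the control at 6 h, by limma). Unadjusted limma p under 0.05 was met by 4 lower members in the control at 3 h, 6 higher and 25 lower in the control at 6 h, 14 lower in propranolol 1 mg/L and 3 higher and 5 lower in isoprenaline, and DESeq2 called 5 lower members in the control at 6 h and 0 in the other 3.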

How the data were processed

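The authors deposited 1 table of CPM values, 1 column per library, each summing to 1000000, per the file header and the values. Per the submitters' processing notes, the tools included edgeR, HTSeq, Bowtie2 2.1.0 and Trim Galore 0.3.2. Neither build nor annotation is given in the sources used here. Libraries were made with a stranded mRNA kit from 500 ng of RNA, per the labels' protocols. Whole reads were recovered for 100% of 862155 values (tolerance 0.01 read). Floors cover counting error only.

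Groups were read from library titles. Every comparison was fitted over all 19159 IDs with limma 3.58.1 (trend, robust; run in R 4.3.3), using log2(CPM + 1) and 16 group means, Benjamini-Hochberg adjusted within each of 17 comparisons, and called at an adjusted p under 0.05. Fold changes on this scale understate those of low IDs. Members and lists were chosen with earlier results of these data known. Alternatives were a pseudocount of 0.25, a mean of at least 5 CPM, no filter (the same as the main fit), only the compared groups, a replicate block and median log-ratio scaling. Further ones were edgeR 4.0.16 and DESeq2 1.42.0 on recovered reads, and each library left out. Only the limma and edgeR fits of isoprenaline against propranolol 1 mg/L at 6 h were run on simulated counts, of fixed spread. There limma recovered 47.8% of 2-fold changes and edgeR 49.3%. The rule, the groups of members and DESeq2 were not tested in this way. The recounts of members over time under other settings, and the 24 h sums and group medians without replicate 1 of 4 mg/L, were chosen after seeing the data. IDs named by rule were ranks 1 and 2, the 2 other members lowest in isoprenaline and mixture against propranolol 1 mg/L at 6 h among those at 5 CPM or more, and members called in a comparison. The others were chosen after their values were seen: rank 3 and Dapma7bEVm002650t1 for their 24 h values, the near-identical pairs (r above 0.98) and the member alone in its group. Groups of members came from average linkage (1 minus Pearson r, cut into 4). Replicate numbers are not stated to pair libraries, and deviations of same-numbered libraries had every correlation above 0.1 for 5 comparisons out of 17, all with 0 members called with and without the block.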

Additional observations from a re-analysis of the deposited data

How the results depend on the processing

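The list depended on the rule. Of the 100 members, 52 stayed with a 6 h limit of 0.25, 38 with a limit of 1 and 29 with none, and 25 to 96 with each of the 14 libraries of the rule left out (25 without replicate 1 of propranolol 4 mg/L at 24 h, 40 without replicate 2 of the control at 24 h). With the other settings 67 to 86 stayed. Counts of members lower at 24 h moved less: from 95 to between 93 and 96 (control, against 1 h), from 93 to between 85 and 94 (control, 6 h), from 84 to between 73 and 88 (4 mg/L, 1 h) and from 47 to between 41 and 67 (4 mg/L, 6 h) with libraries left out, and the last was 59 with median log-ratio scaling.

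Calls of members rested on the shared fit. With only the compared groups, 0 members were called for 4 against 1 mg/L at 1 h, isoprenaline or mixture against propranolol 1 mg/L at 6 h, the mixture at 6 against 1 h and the mixture against control at 6 h, but 3 for the mixture against control at 1 h, 3 (all lower) for the control at 6 against 1 h and 3 for isoprenaline against control at 6 h. With the replicate block there were, at 6 h, 5 for the mixture against propranolol, 5 and 3 for isoprenaline and mixture against control, and 4 for the mixture at 6 against 1 h, where 3 lower against 1 higher reversed the balance of the 1 higher call; the cause was not tested. The block moved no other count by over 1.5 times. Median log-ratio scaling gave, at 6 h, 6 for the mixture set against propranolol and 4 set against control. edgeR gave 6 and 3 for these and 0 for the mixture at 6 against 1 h. DESeq2 gave 3 for 4 mg/L and 2 for isoprenaline against control at 1 h, 6 and 13 (isoprenaline, mixture) against propranolol and 4 and 6 against control at 6 h, 7 for the mixture at 6 against 1 h and 5 for the control.

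With libraries left out, calls ranged from 0 to 1 for the doses at 1 h, 0 to 2 and 1 to 3 (isoprenaline, mixture) against propranolol at 6 h, 0 to 8 and 0 to 10 against control at 6 h, 0 to 3 for the mixture and 0 to 2 for the control at 6 against 1 h, and stayed at 0 elsewhere. The median difference of the members, taken from the limma fits only, kept its sign in all of them except in 6 comparisons whose main median was between -0.13 and 0.04. Each scaling changed a library by -0.20 to 0.25 on the log2 scale. With 3 libraries a group and a median SE of 0.279, a member that did not pass may still have differed by several times that SE.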

Other observations

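The single control library at 0 h entered no comparison. The groups of members stood apart there: the median L was 5.97 in group 1, 4.08 in group 2 and 2.94 in group 3, against 4.30, 5.57 and 4.58 in the control at 1 h. Dapma7bEVm002650t1 was at 39.5 CPM, Dapma7bEVm028639t1 at 42.05 CPM and Dapma7bEVm001659t1 at 826.9 CPM at 0 h, above their values in every other library, and Dapma7bEVm029200t1 was at 33.9 CPM, below all libraries of 1, 3 and 6 h. There is no replicate of this library, and it was among those used to form the groups.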
